A study of Mus musculus with 4 samples.

Results

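Meningeal fibroblast genes were followed in mouse brain cortex as a set of 10 genes chosen by symbol: the leucine-rich proteoglycans Dcn, Lum, Bgn, Fmod and Ogn, the collagen genes Col1a1, Col1a2 and Col3a1, the prostaglandin D synthase gene Ptgds and the transporter gene Slc6a13. All 10 were measured, each by 1 transcript cluster (the group of probes that reports 1 gene), among 19572 transcript clusters and 19505 symbols in all. The tissue was cortex of male mice of the SAMR1 line, the normally ageing control line of the senescence-accelerated mice. The TCQA group was given TCQA (a caffeoylquinic acid, one of the polyphenols of plants) orally, 5 mg/kg each day for 1 month from an age of 11 months, and the water group received MilliQ water. All mice had first been kept singly for 4 months from an age of 7 months. Each group is represented by 2 Clariom S arrays, and the labels do not say whether an array held 1 mouse or a pool, and p-values therefore cover the spread among these 4 arrays alone, which can be technical. The labels describe the tissue as brain cortex and do not say whether the meninges were removed.

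The meninges are the membranes around the brain, and their inner layers follow the vessels into the cortex. Their fibroblasts build a collagen matrix in which small leucine-rich proteoglycans bind collagen and set how its fibrils grow. The same layers also hold a barrier of cells that carry solutes and secrete proteins into the cerebrospinal fluid, among them the enzyme made from Ptgds. Several of these genes are active elsewhere as well: Ptgds is strong in oligodendrocytes and choroid plexus epithelium, and the proteoglycan genes in connective tissue generally.

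Between TCQA and water cortex the meningeal fibroblast genes were split evenly in direction. Of the 10 genes 5 were higher and 5 lower after TCQA, with a median log2 change of 0.0070, against 0.0028 over all 19572 transcript clusters. Fmod was the 1 gene of the 10 that was higher at an unadjusted p under 0.05 in limma, which 7.37% of all transcript clusters reached in either direction and 3.48% as higher. By the stated criteria of the study, which ask for a change past 2-fold beside an unadjusted p under 0.05, 0 of 10 passed, against 0.664% of all, and after Benjamini-Hochberg adjustment over all transcript clusters 0 passed, against 0% of all. The smallest adjusted p of a member in limma was 0.673. With 2 arrays against 2 an exact permutation test on a single gene cannot give a two-sided p below 0.333. In tissue RNA, fewer cells of a type and less RNA per cell cannot be told apart.

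Levels are log2 signals, in which a step of 1 is a doubling, and the negative control probe sets on each array give the background. Their median was 6.98 over all arrays and their 95th percentile 11.06. Of the 10 genes, Ptgds exceeded the 95th percentile, and Dcn, Ogn and Slc6a13 lay between it and the median in the mean of the arrays. Lum, Bgn, Fmod and all 3 collagen genes had means under that median, and the size of their differences is uncertain for this reason. The collagen genes that define fibroblasts were thus not above the negative control median. The 23 antigenomic background probe sets, another background control, had a lower median of 5.96 and a highest value of 7.63. Lum (mean 6.74), Bgn (6.85), Fmod (6.55) and Col1a1 (6.28) lay above the antigenomic median and below that highest value. Col1a2 (5.68) and Col3a1 (3.82) were below the antigenomic median. Means above the negative control median were found for 4 of the 10 genes. The same held for 15 of 34 measured further fibroblast identity genes, against 50.2% of all transcript clusters. The array medians of the named transcript clusters lay between 6.98 and 7.04. Genes of the list for cortical neurons were above the negative control median for 11 of 11 measured. Water 1 stood apart in the tissue markers. Genes of the neuron list were lower on water 1 than on water 2 for 11 of 11. The list means were 13.40 and 13.35 in the TCQA arrays, against 12.55 on water 1 and 13.36 on water 2. Myelin genes were higher on water 1 than on water 2 for 11 of 11. The median log2 change of the neuron list was 0.50, and -0.045 without water 1. With all arrays 3 genes (Rbfox3, Snap25 and Fezf2) were higher and 0 lower at an unadjusted p under 0.05 in limma. Of all transcript clusters 3.48% were higher and 3.89% lower at that threshold. Without water 1 the log2 change of Fezf2 went from 1.17 to 0.44. That of Rbfox3 went from 0.52 to 0.45 and that of Snap25 from 0.50 to 0.46. Rbfox3 and Snap25 lost their calls with any 1 array left out, and Fezf2 without TCQA 2 and without water 1. Camk2a, a kinase of the synapse and the brightest gene of that list, differed by -0.19 (SE 0.21). The part of the tissue makeup of water 1 in the changes of the 10 genes was not tested.

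**Figure D1:**
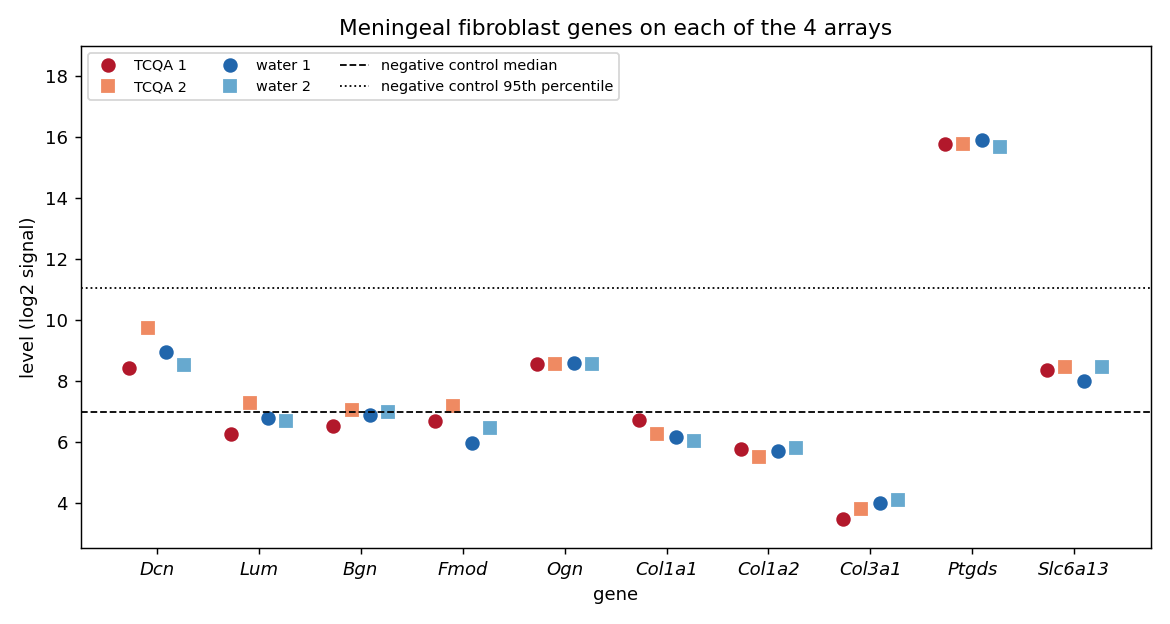
Level of each of the 10 genes (log2 signal, vertical axis) on the arrays TCQA 1, TCQA 2, water 1 and water 2, 1 point per array, with the median (dashed, 6.98) and the 95th percentile (dotted, 11.06) of the negative controls. Ptgds stands above both lines on all 4 arrays, Dcn, Ogn and Slc6a13 above the median on all 4, and the 3 collagen genes below it on all 4.

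The proteoglycan gene Dcn encodes decorin, which binds collagen fibrils and growth factors. Dcn read 8.42 on TCQA 1 and 9.72 on TCQA 2, against 8.93 on water 1 and 8.53 on water 2 (transcript cluster TC1000001189.mm.2, chromosome 10). TCQA 2 was the highest and TCQA 1 the lowest, so that the water arrays lay between the TCQA arrays. The mean was 9.07 ± 0.92 after TCQA and 8.73 ± 0.29 after water (SD, n = 2 each), a log2 change of 0.34 (SE 0.42; limma, adjusted p = 0.857). The direction depended on which TCQA array was kept: without TCQA 1 the log2 change was 0.99, where limma gave an unadjusted p of 0.0119 and an adjusted p of 0.625, and without TCQA 2 it was -0.31.

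Lum, the gene of lumican, lies next to Dcn on chromosome 10 and had the same order of arrays. It read 6.24 on TCQA 1 and 7.28 on TCQA 2, against 6.78 on water 1 and 6.67 on water 2 (TC1000001190.mm.2). Again both water arrays lay between the TCQA arrays, and TCQA 2 alone was above the negative control median. The means were 6.76 ± 0.74 after TCQA and 6.73 ± 0.07 after water (SD, n = 2 each), a log2 change of 0.035 (SE 0.35; limma, adjusted p = 0.987), which was 0.56 without TCQA 1, -0.49 without TCQA 2 and -0.017 without water 2.

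Bgn, the gene of biglycan, the closest relative of decorin, read 6.51 on TCQA 1 and 7.04 on TCQA 2, against 6.88 on water 1 and 6.98 on water 2 (TC0X00000685.mm.2, chromosome X). The groups overlapped, and TCQA 1 was again lowest and TCQA 2 highest. The log2 change was -0.16 (SE 0.24; limma, adjusted p = 0.892), with 0.11 without TCQA 1 and -0.42 without TCQA 2.

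Fmod encodes fibromodulin, which binds type I collagen and slows fibril growth. Fmod read 6.67 on TCQA 1 and 7.16 on TCQA 2, against 5.95 on water 1 and 6.44 on water 2 (TC0100001218.mm.2, chromosome 1). Both TCQA arrays lay above both water arrays, although both group means, 6.91 ± 0.35 after TCQA and 6.19 ± 0.35 after water (SD, n = 2 each), were below the negative control median. The difference was 0.72 on the log2 scale, or 1.65-fold (SE 0.27, 95% interval 0.077 to 1.37; limma, unadjusted p = 0.0335, adjusted p = 0.673). Without TCQA 1 it was 0.97, and without water 2 also 0.97. It was 0.47 without TCQA 2 and 0.47 without water 1, and no longer had an unadjusted p under 0.05 by limma in either case, nor without the empirical Bayes step (unadjusted p = 0.176) or with the variance prior fitted over every row of the table (unadjusted p = 0.0547).

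Ogn, the gene of osteoglycin, varied least among the 10. Ogn read 8.55 on TCQA 1 and 8.54 on TCQA 2, against 8.58 on water 1 and 8.55 on water 2 (TC1300000569.mm.2, chromosome 13). The 4 arrays spanned 0.045 on the log2 scale, where the median transcript cluster spanned 0.51. The log2 change was -0.022 with a 95% interval of -0.46 to 0.42 (limma, adjusted p = 0.986). limma draws the variance of each gene towards a value shared by all genes, which widens this interval.

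Among the 5 proteoglycan genes, Dcn, Lum and Bgn differed more between the TCQA arrays than between the water arrays, while Fmod differed about as much in both groups and Ogn more between the water arrays. Dcn, Lum, Bgn and Fmod were each highest in TCQA 2, and 5 of the 10 genes were, the other being Slc6a13, where TCQA 2 was the highest array for 27.4% of all transcript clusters. TCQA 2 exceeded TCQA 1 by 1.31 for Dcn, 1.04 for Lum, 0.53 for Bgn and 0.50 for Fmod, but by -0.013 for Ogn. Water 1 differed from water 2 by 0.40 for Dcn, 0.10 for Lum, -0.11 for Bgn, -0.49 for Fmod and 0.033 for Ogn. Over all transcript clusters the median absolute difference was 0.22 between the TCQA arrays and 0.24 between the water arrays. Dcn lay above the mean of the other 3 arrays in TCQA 2 by 1.10, Fmod by 0.81 and Lum by 0.72. The value of Lum, taken as a threshold after it was seen, was reached by 2.23% of all transcript clusters. Dcn and Lum reach it by the way it was chosen, so this share is no test of the 10 genes. A pair of genes known from mitral cells of the olfactory bulb, picked for being high in TCQA 2, is given for comparison. Eomes, which encodes a T-box factor of mitral cells, was at 4.38 and 8.32 in the TCQA arrays, against 4.58 and 4.55 in the water arrays, and Cdhr1, which encodes a cadherin-related protein of those cells, was at 5.67 and 8.61, against 5.87 and 5.62. Both genes were picked for TCQA 2 from earlier results of these data, so their place there was fixed in advance. The part of other tissue in the levels of Dcn and Lum was not tested.

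**Figure D2:**
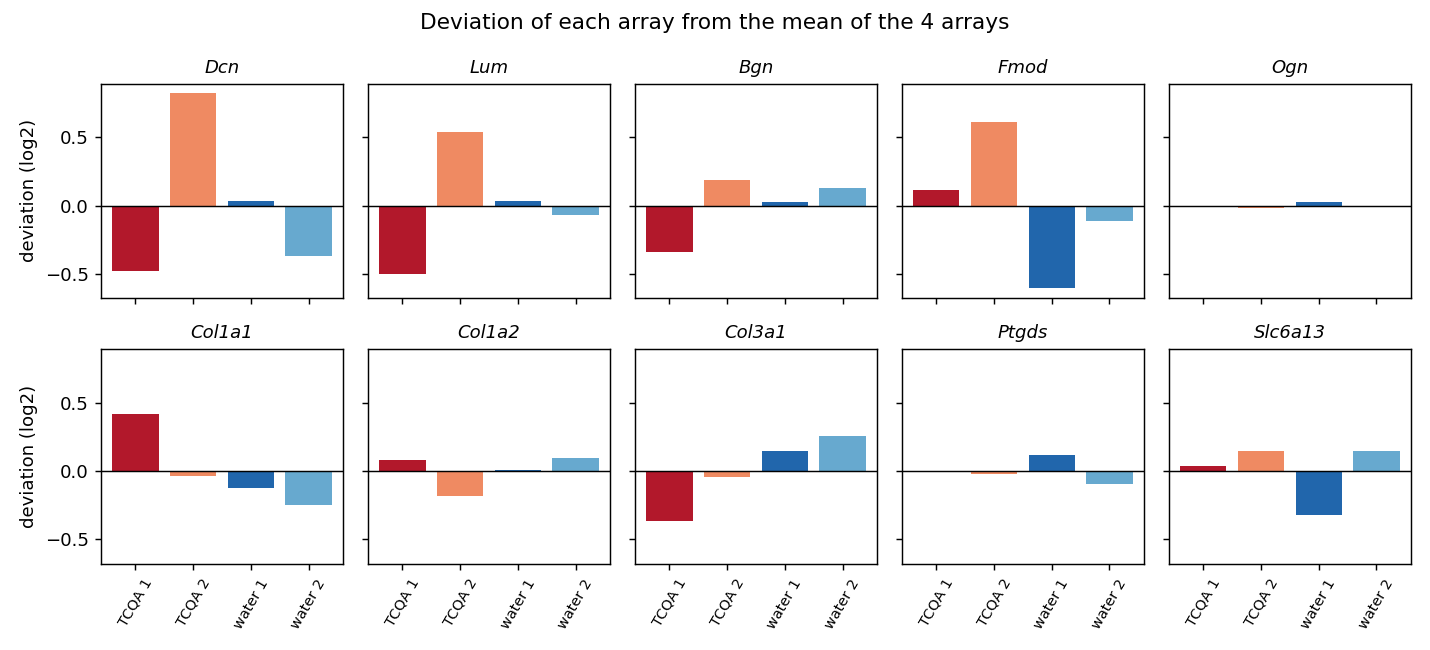
Deviation of each array from the 4-array mean (log2, vertical axis) for each of the 10 genes, with 1 bar per array in the order TCQA 1, TCQA 2, water 1 and water 2. Dcn, Lum, Bgn and Fmod are highest in TCQA 2, the bars of Ogn span 0.045, and the collagen genes do not follow the pattern of Dcn and Lum.

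The proteoglycan genes lie in neighbouring groups in the mouse genome, by the order of coding genes in RefSeq on GRCm38.p6. Dcn and Lum are followed by Kera and Epyc, which encode keratocan and epiphycan. Epyc read 4.13 on TCQA 1 and 5.51 on TCQA 2, against 5.02 on water 1 and 4.67 on water 2, the same order of arrays as Dcn and Lum, an order found in 3.46% of all transcript clusters. Kera did not share it, with 2.98 and 2.72 in the TCQA arrays against 3.05 and 2.79 in the water arrays, and both lay far below the negative control median. Beside Fmod, Prelp stood at a log2 change of -0.26 (SE 0.24) and Optc at -0.24 (SE 0.33). Beside Ogn, Omd was at 0.41 (SE 0.35), Aspn at -0.56 (SE 0.29) and Ecm2 at 0.28 (SE 0.26). In these neighbours, named for their position, 0 of 7 had an unadjusted p under 0.05 by limma, against 7.37% of all transcript clusters. The sign of Fmod was not shared by Prelp or Optc.

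The collagen genes did not share a direction, although their products are assembled together. Col1a1 and Col1a2 encode the chains of type I collagen, the main fibril of the meninges, and Col3a1 the chain of type III collagen, which joins it in the same fibrils. Col1a1 read 6.70 on TCQA 1 and 6.24 on TCQA 2, against 6.15 on water 1 and 6.03 on water 2 (TC1100001448.mm.2, chromosome 11). Both TCQA arrays were above both water arrays, by a log2 change of 0.38 (SE 0.23, 95% interval -0.16 to 0.92; limma, adjusted p = 0.708), and the change was 0.15 without TCQA 1 and 0.61 without TCQA 2.

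Col1a2 read 5.76 on TCQA 1 and 5.50 on TCQA 2, against 5.69 on water 1 and 5.78 on water 2 (TC0600000010.mm.2, chromosome 6). The groups overlapped, with a log2 change of -0.10 (SE 0.20; limma, adjusted p = 0.918). Its sign was thus opposite to that of Col1a1, its partner chain, and neither change passed the test.

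Col3a1 read 3.46 on TCQA 1 and 3.78 on TCQA 2, against 3.97 on water 1 and 4.08 on water 2 (TC0100000343.mm.2, chromosome 1). Both TCQA arrays were below both water arrays, by a log2 change of -0.40 (SE 0.21, 95% interval -0.90 to 0.093; limma, adjusted p = 0.690), with -0.24 without TCQA 1 and -0.56 without TCQA 2. Its 4-array mean exceeded 4.23% of the negative controls, the lowest share among the 10, so that the arrays give no level for it above background. Col5a2, the next coding gene to Col3a1, encodes a chain of the collagen that seeds type I fibrils and differed by 0.19 (SE 0.22).

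In total 2 of the 10 genes, Fmod and Col1a1, had both TCQA arrays above both water arrays, where 19.9% of all transcript clusters did, and 1, Col3a1, had both below, where 19.2% did. The groups thus did not overlap for 3 of the 10, against 39.2% of all. All 3 had means below the negative control median.

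**Figure D3:**
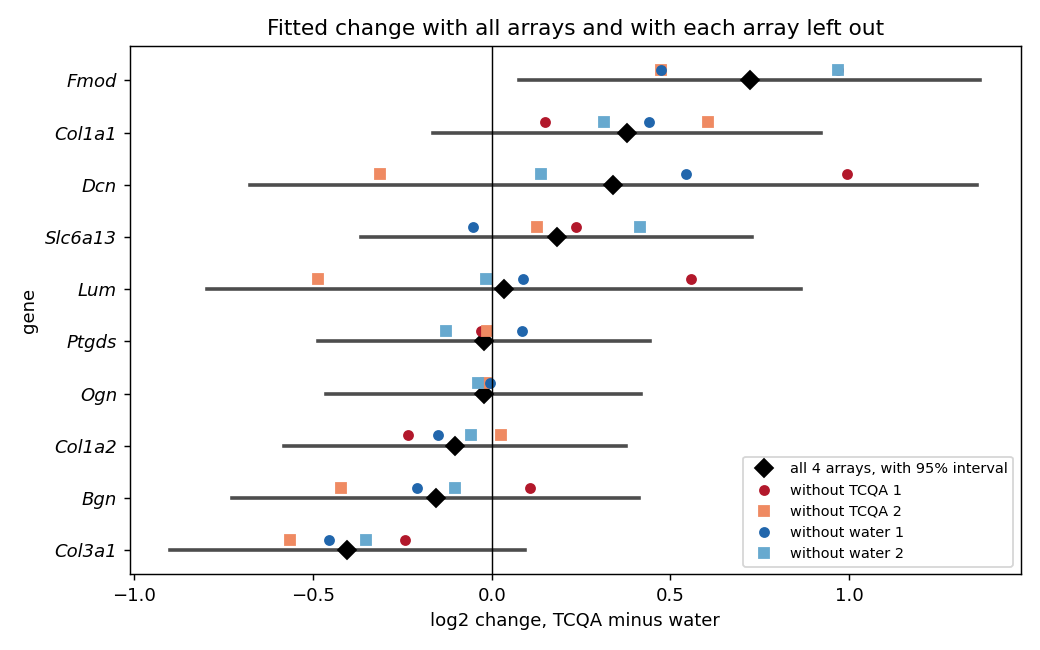
Log2 change of TCQA minus water (horizontal axis) for each gene, with all 4 arrays (diamond, bar for the 95% interval from limma) and with each array left out (coloured points). The interval of Fmod, 0.077 to 1.37, is the 1 that excludes 0, and the points of Dcn, Lum, Bgn, Col1a2, Ptgds and Slc6a13 fall on both sides of 0.

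Ptgds encodes lipocalin-type prostaglandin D synthase, which makes prostaglandin D2 and is secreted into the cerebrospinal fluid, where it also carries small lipophilic molecules. Ptgds was the brightest of the 10 transcript clusters and read 15.79 on TCQA 1 and 15.77 on TCQA 2, against 15.91 on water 1 and 15.69 on water 2 (TC0200003151.mm.2, chromosome 2). The TCQA arrays lay between the water arrays. The means were 15.78 ± 0.01 after TCQA and 15.80 ± 0.15 after water (SD, n = 2 each), a log2 change of -0.021 with a 95% interval of -0.48 to 0.44 (limma, adjusted p = 0.987). Ttr, the thyroid hormone carrier of choroid plexus epithelium, was at 15.42 and 11.46 in the TCQA arrays, against 17.72 and 17.27 in the water arrays, and the oligodendrocyte gene Mbp, of myelin basic protein, was at 16.94 and 16.75, against 17.75 and 17.13. Ptgds was highest in water 1, as Ttr and Mbp were, and lay within 0.21 on all arrays.

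Of 18 measured genes of prostaglandin synthesis and reception, 0 were higher and 2 lower with an unadjusted p under 0.05 by limma, where 3.48% and 3.89% of all transcript clusters were. Ptger1, a receptor of prostaglandin E2, differed by -0.84 (SE 0.23), with both group means below the negative control median, and kept an unadjusted p under 0.05 by limma with any 1 array left out. Ptges2, a prostaglandin E synthase, was at 8.54 and 8.35 in the TCQA arrays, against 9.22 and 8.87 in the water arrays, and lost it without TCQA 2 (-0.51) and without water 1 (-0.43). Hpgds, the other prostaglandin D synthase, found in microglia and mast cells, was at 0.31 (SE 0.20) and did not pass. Ptges3, another prostaglandin E synthase and the brightest of the list, was at 0.17 (SE 0.29). Leaving out TCQA 2 gave 1 higher and 1 lower gene, leaving out water 1 gave 0 and 3, and leaving out water 2 gave 1 and 2. Its median log2 change was 0.061, and leaving out 1 array gave 0.025 for TCQA 2, -0.0037 for water 1 and 0.13 for water 2. After adjustment over all transcript clusters 0 passed.

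Slc6a13 encodes GAT2, a transporter of GABA and taurine in the leptomeninges. Slc6a13 read 8.34 on TCQA 1 and 8.45 on TCQA 2, against 7.98 on water 1 and 8.45 on water 2 (TC0600001370.mm.2, chromosome 6). Water 1 was lower than the other 3 arrays, which lay within 0.11 of each other, and the groups overlapped. The log2 change was 0.18 with a 95% interval of -0.36 to 0.73 (limma, adjusted p = 0.858), and it was -0.052 without water 1 and 0.42 without water 2. Its neighbour Slc6a12, which encodes the betaine and GABA transporter BGT1, was at 3.52 and 3.33 in the TCQA arrays, against 2.94 and 3.33 in the water arrays, all far below the negative control median. Water 1 was the lowest array for both.

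Solute carriers of the meninges and of the borders to the cerebrospinal fluid were higher after TCQA for 12 of 15 genes. Their median log2 change was 0.16, against 0.0028 over all transcript clusters. Of the 15 genes, 3 were higher and 0 lower with an unadjusted p under 0.05 by limma, against 3.48% and 3.89% of all. After adjustment 0 passed. Slc38a2, an amino acid transporter that many cells use, was at 14.79 and 14.88 in the TCQA arrays, against 13.99 and 14.03 in the water arrays. Its log2 change was 0.83 (SE 0.18) and stayed between 0.78 and 0.87 with any 1 array left out. Slc22a6, the organic anion transporter OAT1, differed by 0.63 (SE 0.22) and Slco1a5, an organic anion transporter of choroid plexus, by 0.61 (SE 0.24). Slco1a5 had means below the negative control median in both groups. For Slc22a6 the water mean (6.43) and the 4-array mean (6.75) were below it, and the TCQA mean was 7.06. Slc22a6 lost its unadjusted p under 0.05 by limma without TCQA 2 and without water 1 (0.43), and Slco1a5 without either TCQA array and without water 1 (0.36). Slc4a10, a bicarbonate transporter and the brightest of the list, was at 0.19 (SE 0.21). Leaving out TCQA 1 gave a list median of 0.33 with 3 genes higher, and leaving out TCQA 2 gave 0.042 with 1. Leaving out water 1 gave 0.11 with 1 gene higher, and leaving out water 2 gave 0.25 with 3, while 0 were lower in each case.

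Few genes of the other fibroblast lists passed. Of 22 measured genes of fibroblast matrix, which form microfibrils and elastic fibres or process collagen, 6 were higher and 16 lower, with a median of -0.12, and 0 had an unadjusted p under 0.05 by limma in either direction, against 7.37% of all transcript clusters. Without water 1 that median was 0.012, and without TCQA 2 and without water 2 there were 1 and 2 lower genes with such a p. Sparc, a collagen-binding protein that vascular cells and glia also make, was the brightest of them, at 14.20 and 14.10 in the TCQA arrays and 14.98 and 13.72 in the water arrays. Of 12 other leucine-rich proteoglycan genes 3 were higher and 9 lower, with a median of -0.21, which was -0.076 without TCQA 2 and -0.053 without water 1, and 0 passed in either direction. With 1 array left out 1 or 2 of them were lower at that threshold in limma, and 1 was higher without TCQA 1. Of the 12 means 0 were above the negative control median.

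Of 34 measured fibroblast identity genes 22 were higher and 12 lower, with a median of 0.074, and 3 were higher and 0 lower with an unadjusted p under 0.05 by limma, against 3.48% and 3.89% of all transcript clusters. Aldh1a1, a retinaldehyde dehydrogenase, was at 9.05 and 8.78 in the TCQA arrays, against 8.53 and 8.20 in the water arrays, a difference of 0.55 (SE 0.22) that lost its call without TCQA 1 and without water 2. Thbd, thrombomodulin, differed by 0.66 (SE 0.22) and Alpl, tissue-nonspecific alkaline phosphatase, by 0.61 (SE 0.23), both with means below the negative control median. Both are made by endothelium as well, and both lost their calls without TCQA 2 (0.48 and 0.37) and without water 1, and Alpl also without water 2. Without TCQA 2 the median of the list was 0.0036, with 1 gene higher and 1 lower, and it was 0.12 without water 1 and 0.043 without water 2. Ccn3, a matricellular protein gene and the brightest of the list, was at 0.45 (SE 0.35). Lama1, a laminin chain of the pial basement membrane, was at 7.07 in both TCQA arrays, against 6.93 and 7.22 in the water arrays, and the arachnoid gene Crabp2, a retinoic acid carrier, at 6.03 and 6.40 against 6.26 and 6.39. Zic1 had the largest change of the list, -1.12 (SE 0.85), and did not pass. It was at 8.68 and 11.30 in the TCQA arrays, against 11.80 and 10.41 in the water arrays. Lama1, Crabp2 and Zic1 were chosen after their values were seen.

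Choroid plexus epithelium, which meets the meninges at the ventricles, had more lower genes than the fibroblast list, although the difference between the lists was not tested. Of 14 choroid plexus markers 10 were lower and 0 higher with an unadjusted p under 0.05 by limma, against 3.89% and 3.48% of all transcript clusters, with a median of -1.10. After adjustment 0 passed. With 1 array left out the median ran from -1.54 (without water 2) to -0.76 (without water 1). Calml4, a calmodulin-like gene with the smallest p of the list, averaged 4.67 in the TCQA arrays and 6.29 in the water arrays, both below the negative control median. Kcnj13, a potassium channel of that epithelium, averaged 8.13 in the TCQA arrays and 10.06 in the water arrays. The mean level of the list was 7.03 and 6.47 in the TCQA arrays, against 8.31 and 7.74 in the water arrays. Myelin markers had a mean level of 11.60 and 11.58 in the TCQA arrays, against 12.20 and 11.64 in the water arrays, with 0 of 11 higher and 1 lower. That gene was Mag, at -0.67 (SE 0.28), which lost its call without either TCQA array and without water 1 (-0.31), and without water 2 there were 6 lower genes. Border macrophage markers had a mean of 5.28 and 4.95 in the TCQA arrays, against 5.01 and 5.09 in the water arrays, below the negative control median. Of these 12 genes 4 were higher and 8 lower, with a median log2 change of -0.031. Mrc1 was the 1 of 12 that passed, at 8.68 and 7.46 in the TCQA arrays against 6.54 and 6.57 in the water arrays. Its log2 change of 1.51 was 0.90 without TCQA 1. The meningeal fibroblast genes had a mean of 7.64 and 7.95 in the TCQA arrays, against 7.68 and 7.72 in the water arrays, so that the water values lay between those of TCQA. The part of these cell types in the levels of the 10 genes was not tested.

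**Figure D4:**
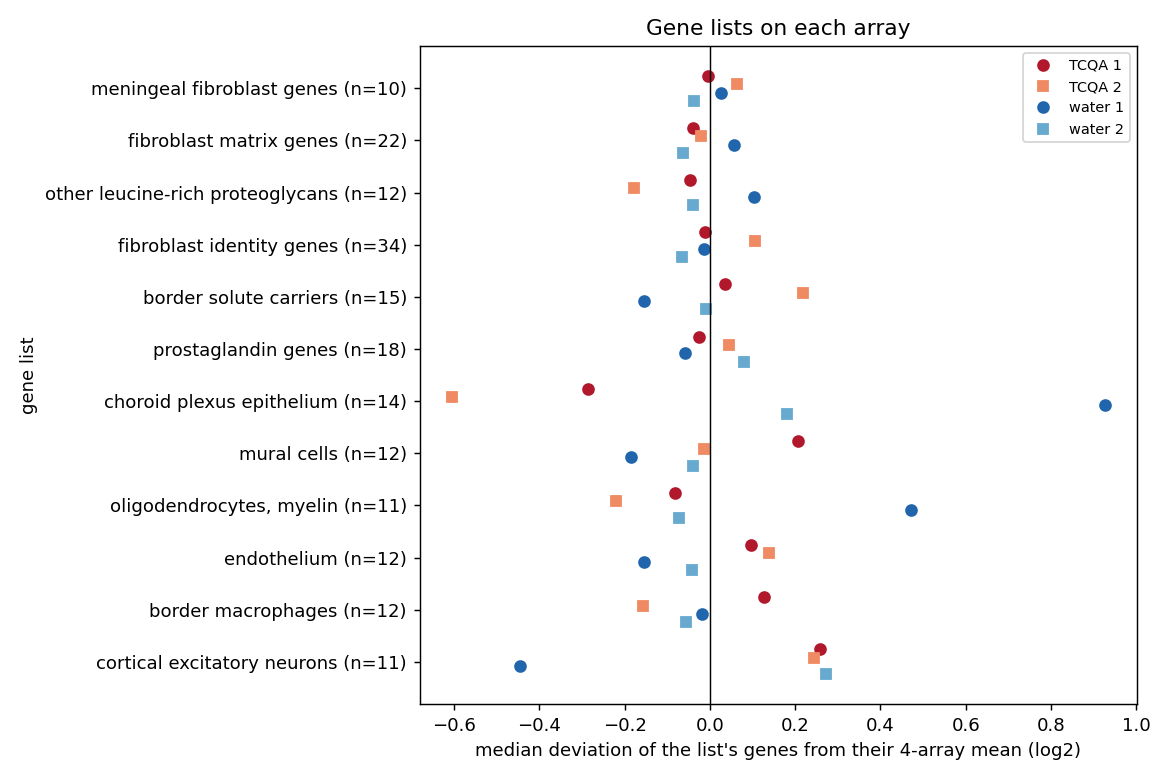
Median deviation of the genes of each list from their own 4-array mean (log2, horizontal axis) on TCQA 1, TCQA 2, water 1 and water 2, with the number of measured genes. The medians of the 10 meningeal fibroblast genes lie between -0.038 and 0.064, while those of choroid plexus epithelium lie between -0.60 and 0.93.

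The profile of the meningeal genes above the negative control median was compared with other genes. The mean centred profile of Dcn, Ogn, Ptgds and Slc6a13 was -0.11 in TCQA 1, 0.23 in TCQA 2, -0.037 in water 1 and -0.082 in water 2. Among 1699 transcript clusters above the 95th percentile of the negative controls with at least the range of this profile, the highest correlations were those of Mdh2 (r = 0.9996), the mitochondrial malate dehydrogenase, Ypel4 (0.9995), Tspan3 (0.9957), Nrip3 (0.9944) and Sgsm1 (0.9941). Mdh2 was at 12.60 and 13.09 in the TCQA arrays, against 12.70 and 12.64 in the water arrays. With 4 arrays a correlation says little: 45 of the 1699 had one of at least 0.95, and of the genes in the profile Dcn deviated most. None of the 5 is listed here as a fibroblast gene.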

How the data were processed

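Per the submitters' design text, the authors normalised the scanned arrays by SST-RMA (RMA after a signal space transformation) with version 4.0.2 of the Transcriptome Analysis Console and deposited 1 log2 signal for each transcript cluster. RMA and limma are named in the submitters' processing notes. RMA equalises the arrays, so the values carry no total or depth, and the transformation can widen fold changes. A genome build for the annotation is not stated in these sources. Symbols came from the platform annotation, with 1 symbol for 19572 of 28846 rows, several for 0 and none for 2634 transcript clusters and 6640 control probe sets. All 19572 gene identifiers were found in a RefSeq table on GRCm38.p6. The row with the highest mean stood for a symbol.

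TCQA was compared with water in limma 3.58.1 (R 4.3.3; lmFit, eBayes, no trend, no block, 2-sided), with Benjamini-Hochberg adjustment over all 19572. Intervals are at 95%. The 5222 negative control probe sets gave the background, beside 23 antigenomic background probe sets. Detection calls of the authors' software were not used here. Members and lists were chosen with earlier results of these data known. Of 185 other listed genes 172 were measured. Named were all members, the brightest gene of each list, from 0 to 4 of the genes with the smallest p in it, and the 5 with the most similar profile. Genomic neighbours of members were named for their position. The 2 arrays of a group were not duplicates (r = 0.9925 for TCQA and 0.9919 for water across genes). Between groups r ran from 0.9898 (TCQA 2 and water 1) to 0.9927 (TCQA 1 and water 2), the highest of the 6 pairs. Alternatives covered the variance prior, moderation, normalisation, centring, a filter on dim clusters, array weights, a replicate block, averaged clusters and each array left out, the last also applied to the other lists after seeing the data. Plots used matplotlib 3.10.9 (Python 3.11.15).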

Additional observations from a re-analysis of the deposited data

How the results depend on the processing

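The counts of members past the study's criteria and past limma's adjusted threshold were 0 in all 13 alternatives. The count with an unadjusted p under 0.05 by limma, 1 with all arrays, was 0 with the prior over every row, 0 with no empirical Bayes step and 0 where clusters under the negative control median were left out, a filter that removed Fmod. It ran from 0 to 2 with 1 array left out: 0 without TCQA 2 or water 1, and 2, Dcn and Fmod, without TCQA 1, while the share of all clusters ran from 5.17% to 8.86%. The median log2 change of the members, 0.0070, was 0.080 over the 4 left by the filter on dim clusters and ran from -0.028 to 0.13 with 1 array left out. With 1 array left out the sign turned for Dcn (-0.31 to 0.99), Lum (-0.49 to 0.56), Col1a2 (-0.23 to 0.027), Ptgds (-0.13 to 0.085), Bgn (-0.42 to 0.11) and Slc6a13 (-0.052 to 0.42), and the cause was not tested. Fmod, Col1a1, Col3a1 and Ogn kept their sign in all alternatives that gave a value. The lone array of a group is then assumed to vary like the other group. Deviations of arrays with the same replicate number correlated with r = -0.0032 across genes, which cannot show whether the arrays were paired. With a replicate block 1 member had an unadjusted p under 0.05, the median stayed at 0.0070, and the calls over all clusters were 1497, against 1443 without it. Signals near the negative controls limit 6 of the 10 genes.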

Other observations

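Markers of the vessel wall, which borders the perivascular fibroblasts, were higher after TCQA for 10 of 12 mural and 9 of 12 endothelial genes. The median log2 change over all transcript clusters was 0.0028. Of 12 mural cell markers 2 were higher and 0 lower at an unadjusted p under 0.05 in limma. Of 12 endothelial markers 3 (Slc2a1, Flt1 and Abcb1a) were higher and 1 (Emcn) lower, where 3.48% and 3.89% of all transcript clusters were, and 0 passed after adjustment. Acta2, smooth muscle actin, was at 7.36 and 7.79 in the TCQA arrays, against 6.92 and 6.98 in the water arrays, and lost its call without TCQA 2 (0.40) and without either water array. Myh11, the myosin of smooth muscle, was at 6.07 and 5.82, against 5.28 and 5.36, below the negative control median throughout, and lost its call without TCQA 1 and without water 1. Rgs5, a pericyte gene and the brightest of the mural list, was at 0.30 (SE 0.25). Slc2a1, which carries glucose across brain endothelium, differed by 0.77 (SE 0.19) and kept its call with any 1 array left out. Flt1, a VEGF receptor, lost its call without TCQA 1 and without water 1, and Abcb1a, a drug efflux pump, and Emcn, an endothelial sialoprotein, lost theirs without TCQA 2 and without water 1, where Abcb1a stood at 0.46, against 0.74 with all arrays. The median log2 change of the mural list was 0.25, with 0.037 without TCQA 1 and 0.41 without TCQA 2, and that of the endothelial list was 0.25, with 0.14 without TCQA 2 and 0.15 without water 1.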
